A study of Mus musculus with 14 samples.

Results

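The response of the TIN mutant to low oxygen was read from 4 of the 14 RNA sequencing libraries of this series. These were libraries A and B of TIN cells at 1% oxygen (hypoxia), set against libraries A and B of TIN cells at atmospheric oxygen (normoxia). Of the 52636 genes in the deposited table, 32273 were above 0 in any library, and 16157 reached 1 CPM or more in 2 or more libraries and were tested. CPM is a read count scaled to a common library total. Every library came from tMEF cells, a line of transformed embryonic fibroblasts of the mouse, in which the mouse telomere protein TRF1 had been replaced by TRF1 of the naked mole rat (NMR). The TIN mutant of NMR TRF1 carried Ala105Thr. The comparison groups were the GLAD mutant, which carried Glu69Lys, Val70Ala and Ala75Thr, and the double mutant, which carried all of these substitutions, each in normoxia and in hypoxia. The wild-type group, in normoxia, carried NMR TRF1 without substitutions by its genotype label, although the names of its 2 columns say mouse, so which TRF1 those cells carried is uncertain. A wild-type hypoxia group was not analysed here. The culture medium, DEM, held 10% fetal calf serum in every group, and total RNA was sequenced on a NovaSeq instrument after TruSeq library preparation. Each of the 7 groups had 2 libraries, and the labels do not say that A and B came from separate cultures, so the p-values rest on library-to-library spread that may be technical. Nor do the labels say how many cell lines stand behind each mutant, so the line and the substitution cannot be told apart.

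TRF1, encoded by Terf1, is a DNA-binding subunit of shelterin, the protein complex that covers telomeres and assists their replication, and it binds the shelterin subunit TIN2. When oxygen falls, prolyl hydroxylases stop marking the hypoxia-inducible factors (HIF) for destruction by VHL, and stabilised HIF switches on glucose uptake, glycolysis, lactate export and pH control. Fibroblasts also carry an interferon system, in which nucleic acid sensors induce interferon, and interferon acts through receptors, JAK kinases and STAT and IRF transcription factors on a set of antiviral and antigen presentation genes.

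Reads recovered from the steps of the CPM values gave totals of 14487730 and 12246966 for the TIN normoxia libraries and 12280280 and 13714196 for the TIN hypoxia libraries, within a range of 11917013 to 15023546 over the series. Where no read was found, as many as 3 reads (0.200 to 0.252 CPM) could still be expected, a floor that covers counting error only. Between libraries A and B of the same group, the mean chi-square of the counts per gene was 1.42 in TIN hypoxia, 3.17 in TIN normoxia and 18.4 in the wild type. Fibroblast markers had the highest sum of the marker lists, 8090 and 8020 CPM in TIN normoxia and 8740 and 8790 CPM in TIN hypoxia. Thy1, on the same list, was at 0.15 and 0.1 CPM and then 0.2 and 0 CPM. Neural markers summed to 255 and 264 CPM and then 195 and 198 CPM. The sums of adipocyte markers were 30.1 and 28.4 CPM and then 35.6 and 36.7 CPM. Those of endothelial markers were 8.2 and 7.95 CPM and then 9.64 and 10.7 CPM. For skeletal muscle they were 2.35 and 2.35 CPM and then 6.0 and 5.4 CPM. Lymphoid markers summed to 0.45 and 0.65 CPM and then 1.25 and 0.95 CPM, with Cd3e, Cd8a, Ms4a1 and Ncr1 at 0. Myeloid markers summed to 35.1 and 32.7 CPM and then 76.7 and 71.8 CPM, with Ptprc, Tyrobp and Aif1 at 0 and the lysosomal marker Cd68 rising by 2.44. Not every myeloid marker tested rose, as given further on. Epithelial markers summed to 9.44 and 8.35 CPM and then 61.4 and 63.5 CPM, most of it the keratin Krt19. In bulk RNA, a change in the number of cells of a type and a change in RNA per cell cannot be told apart.

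Levels below are CPM divided by library factors from the TMM method (a trimmed mean of log ratios). The response is the difference of the group means of log2(TMM-scaled CPM + 0.5), hypoxia minus normoxia, with its standard error after ±; the added 0.5 makes it smaller for low genes. A gene is called, and is said to have risen or fallen, where the Benjamini-Hochberg adjusted p of the limma fit over all genes was under 0.05. In the TIN mutant 4366 genes rose (27.0%) and 4368 fell (27.0%). At least 2-fold rises numbered 1089 (6.74%) and at least 2-fold falls 646 (4.00%). The median response over all genes was 0.01, and 9567 genes had an unadjusted p under 0.05. In 8731 of the 8734 called genes both hypoxia libraries lay beyond both normoxia libraries, so a lack of overlap adds little to a call. The share of all genes tested without overlap was not counted. Many small differences were called, and every count below is read against these shares. The strand setting of the authors' counting was not given in the sources used here, so reads of overlapping genes cannot be told apart. Among the genes named below, Car9, Adm, Stc1, Loxl2, Plod2, Higd1a, Bnip3, Slc2a1, Aldoa, Tpi1, Hk1, Gys1, Hif1a, Egln2, Irf7, Usp18, Tyk2, Dhx58, Cgas, Gbp2, Tap1, Tapbpl, Psmb10, Cxcl10, Vcam1, Tinf2, Tnks, Acd, Dkc1, Fen1, Ndufs1, Ddit3, Ciart, Dbp and Kdm7a overlap a tested gene on the opposite strand.

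**Figure D1:**
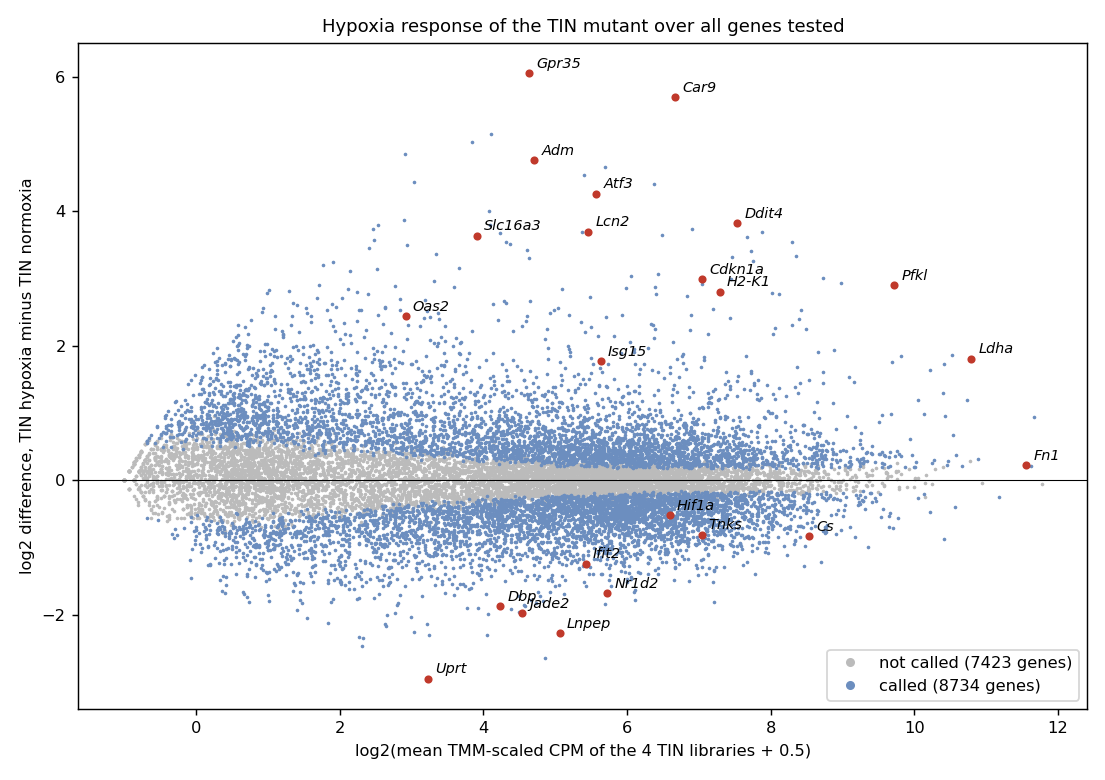
Response of the TIN mutant (log2 difference, hypoxia minus normoxia) against log2 of the mean TMM-scaled CPM of the 4 TIN libraries plus 0.5, with 1 point for each of the 16157 genes tested (blue called, grey not called, red named genes). The rises reached 6.06 (Gpr35, near the floor of 3 reads in normoxia), whereas the falls among named genes reached -2.95 (Uprt).

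The oxygen-sensing machinery of the TIN mutant moved in both directions. Of 9 tested genes for HIF subunits, hydroxylases and VHL, 3 rose and 4 fell, with a median of -0.17. Hif1a, the HIF-1 alpha subunit (ENSMUSG00000021109, GRCm38 chromosome 12, 73901375 to 73947530), stood at 108 and 119 CPM in the TIN normoxia libraries and at 77.3 and 79.7 CPM in the hypoxia libraries. The libraries did not overlap, as was so for nearly all called genes, and the response was -0.53 ± 0.14 (adjusted p = 3.8e-03). Hif1a went from a mean of 156 to 195 CPM in GLAD, which was not called, and from 265 to 381 CPM in the double mutant, which was. The TIN response of Hif1a was lower than that of GLAD by 0.85 ± 0.20 (adjusted p = 3.1e-03) and lower than that of the double mutant by 1.05 ± 0.20 (4.3e-04). Epas1, which encodes the HIF-2 alpha subunit, went the same way, from 48.5 and 46.8 CPM to 30 and 33.5 CPM, a response of -0.58 ± 0.16 (5.1e-03). Its TIN response was also below both others, by 0.74 and 0.86. Without TIN hypoxia library A the response of Epas1 was -0.50 and no longer called (adjusted p = 0.058), and 2 genes of the list fell. The partner subunit Arnt fell by 0.33 ± 0.08, a call that was lost, at -0.15, with the trend on transcript length removed as described further on.

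The hydroxylases that HIF itself induces rose. Egln1, which encodes the main HIF prolyl hydroxylase, went from 72.0 and 69.7 CPM to 485 and 485 CPM, a response of 2.77 ± 0.09 (adjusted p = 3.6e-14). That rise was smaller than the 3.78 of GLAD and the 3.29 of the double mutant, by 1.01 and 0.52 on the log2 scale, both called. Egln3 rose by 3.36 ± 0.15 and Vhl by 0.80 ± 0.08, with neither difference to the other mutants called. The prolyl hydroxylase gene Egln2 (-0.17 ± 0.09) and Hif1an, which encodes the asparaginyl hydroxylase (-0.17 ± 0.08), were not called.

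HIF targets outside glycolysis rose nearly as a block. Of 35 tested members, 32 rose in TIN and none fell, and their median response was 2.55 against 0.01 over all genes. Car9, a carbonic anhydrase on the cell surface that handles acid (ENSMUSG00000028463, GRCm38 chromosome 4, 43506966 to 43513729), was at 3.45 and 3.24 CPM in TIN normoxia and at 202 and 195 CPM in TIN hypoxia, a 59.3-fold rise of the mean and a response of 5.69 ± 0.09 (adjusted p = 1.9e-17). The acid exporter Slc16a3, a lactate transporter placed with the glycolysis genes (GRCm38 chromosome 11, 120948480 to 120960868), went from 1.75 and 1.72 CPM to 26.2 and 28.4 CPM, a response of 3.64 ± 0.15 (1.6e-12). The promoters of these 2 genes are printed because both hold the HIF core motif ACGTG, searched on both strands and set in capitals, in a window from 250 bases before to 50 bases after the RefSeq start site (GRCm38.p6). That of Car9 spans chr4:43506776-43507075 on the plus strand and holds 1 match on the reverse strand, 18 bases before the start. That of Slc16a3 spans chr11:120948817-120949116 on the plus strand and holds 2 forward matches, 27 and 14 bases before the start.
Car9: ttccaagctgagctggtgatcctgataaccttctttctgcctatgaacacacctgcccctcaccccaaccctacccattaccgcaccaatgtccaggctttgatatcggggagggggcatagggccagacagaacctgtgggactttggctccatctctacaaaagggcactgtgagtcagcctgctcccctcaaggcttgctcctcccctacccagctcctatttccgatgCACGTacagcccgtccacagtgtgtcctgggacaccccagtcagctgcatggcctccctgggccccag
Slc16a3: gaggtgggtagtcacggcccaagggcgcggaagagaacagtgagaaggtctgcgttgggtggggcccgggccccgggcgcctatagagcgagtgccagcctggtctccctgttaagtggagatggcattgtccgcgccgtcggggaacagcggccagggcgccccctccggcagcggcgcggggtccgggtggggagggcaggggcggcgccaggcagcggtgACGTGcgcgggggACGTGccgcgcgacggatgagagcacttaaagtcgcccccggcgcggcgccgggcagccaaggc
The motif was present in 21.8% of the windows of all 27025 genes in the RefSeq promoter table, in 17 of the 24 matched HIF targets and in 16 of the 25 matched glycolysis genes. It was not particular to these lists. The circadian clock genes (10 of 16) and the autophagy genes (11 of 20), which did not rise as a block, also held it often. Collagen genes held it less often (2 of 18). A match describes the letters and is no evidence of binding.

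Secreted and signalling HIF targets were among the strongest. Adm, the vasodilator peptide adrenomedullin, was at 1.51 and 1.23 CPM in TIN normoxia and 47.3 and 52.7 CPM in TIN hypoxia, a response of 4.76 ± 0.12 (adjusted p = 1.3e-15). Stc1, the hormone stanniocalcin 1, went from 0.779 and 0.196 CPM to 31.4 and 34.3 CPM, a response of 5.14 ± 0.21 (1.9e-12). The normoxia values of Stc1 are near the floor of 3 reads, so the size of its rise is not reliable. Vegfa, the main angiogenic factor, went from 42.7 and 42.4 CPM to 254 and 249 CPM, a response of 2.55 ± 0.07 (7.9e-15). None of these overlapped between normoxia and hypoxia, as was so for nearly all called genes. The mTORC1 inhibitor Ddit4 went from 24.3 and 23.6 CPM to 343 and 348 CPM, a response of 3.82 ± 0.07 (2.1e-16). Matrix-modifying targets rose as well: the lysyl oxidase-like Loxl2 by 4.40 ± 0.10, the collagen prolyl hydroxylases P4ha1 by 2.94 ± 0.09 and P4ha2 by 2.78 ± 0.08, and the lysyl hydroxylase Plod2 by 2.72 ± 0.11. Mitochondrial targets rose too, among them the adenylate kinase Ak4 by 4.66 ± 0.11, the respiratory chain factor Higd1a by 3.69 ± 0.09 and the mitophagy receptors Bnip3 by 3.62 ± 0.08 and Bnip3l by 1.54 ± 0.10. Nt5e (0.81 ± 0.38), Angptl4 (0.32 ± 0.13) and Stc2 (0.18 ± 0.18) were not called. Ankrd37 rose by 4.54 ± 0.16 and Lrp2bp, which overlaps it on the opposite strand, by 4.00 ± 0.18.

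As a list the HIF targets gave similar counts in the other mutants. In GLAD 32 rose and none fell (median 2.34), where 21.9% of all genes rose and 26.1% fell, and in the double mutant 32 rose and 1 fell (median 2.27), where 26.2% of all genes rose and 29.9% fell. Single members differed. Of the 35, 10 had a TIN response higher than in both other mutants, against 12.4% of all genes, and 2 had a lower one, Egln1 and Kdm3a, against 12.1%. The 2 comparisons share the TIN libraries. The response of Car9 in TIN was higher than in GLAD by 1.53 ± 0.13 (adjusted p = 3.7e-07) and than in the double mutant by 2.52 ± 0.13 (2.7e-10). Much of that stood in the normoxia level. Car9 had a mean of 3.34 CPM in TIN normoxia against 33.7 CPM in GLAD, 34.6 CPM in the double mutant and 21.6 CPM in the wild type, while in hypoxia its mean of 198 CPM in TIN lay under the 613 CPM of GLAD and the 316 CPM of the double mutant. Adm showed the same order, with 1.37 CPM in TIN normoxia against 12.4 to 16.9 CPM in the other normoxia groups, and 50 CPM in TIN hypoxia against 87.4 and 92.5 CPM. For 18 of the 35 targets the TIN normoxia mean was the lowest of the 7 groups, against 15.1% of all genes tested.

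**Figure D2:**
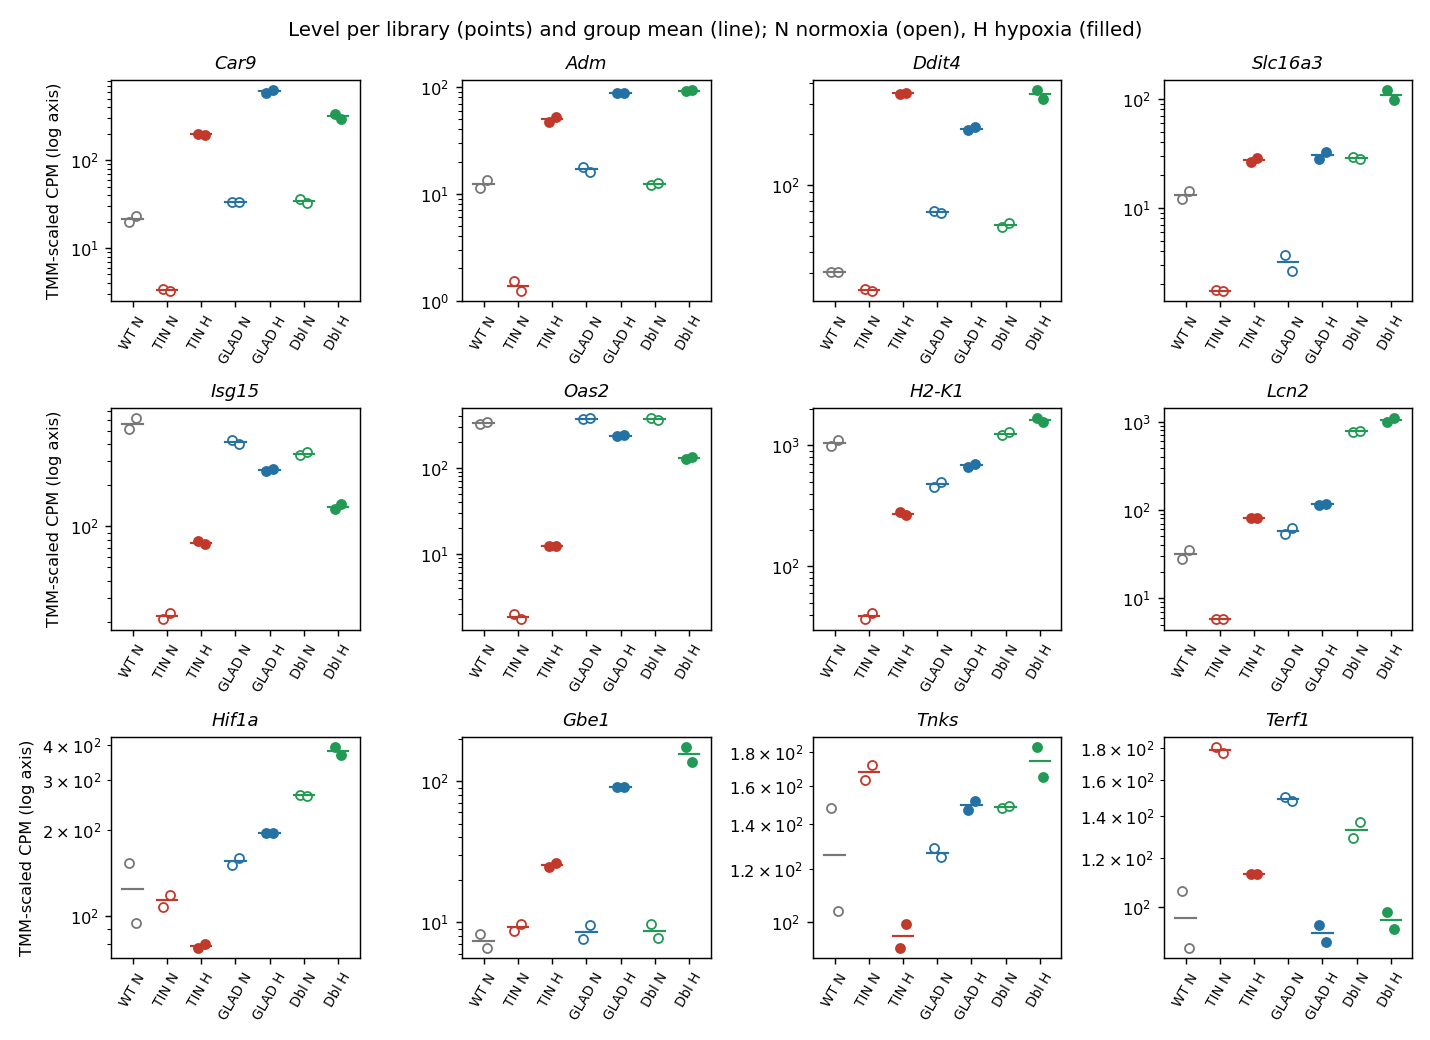
TMM-scaled CPM on a log axis for 12 genes in each of the 14 libraries (points; N normoxia open, H hypoxia filled; lines, group means). Car9, Adm, Isg15, Oas2, H2-K1 and Lcn2 sit lowest in the TIN normoxia libraries and rise in TIN hypoxia, while Hif1a and Tnks sit lowest in TIN hypoxia.

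Glycolysis rose throughout its length. Of 25 tested genes, 21 rose and none fell, with a median of 1.44. At the entry, the glucose transporter Slc2a1 went from 104 and 97.4 CPM to 583 and 585 CPM, a response of 2.53 ± 0.07 (adjusted p = 1.4e-14), and the hexokinase Hk2 rose by 2.45 ± 0.10. In the middle, the phosphofructokinase subunit Pfkl went from 202 and 196 CPM to 1499 and 1474 CPM, a response of 2.90 ± 0.09 (4.1e-14). At the exit, the lactate dehydrogenase Ldha went from 779 and 799 CPM to 2836 and 2676 CPM, a response of 1.80 ± 0.08 (2.9e-12). Normoxia and hypoxia libraries did not overlap for any of these, as was so for nearly all called genes. Pdk1, a kinase that inhibits pyruvate dehydrogenase, rose by 2.99 ± 0.09, and the aldolase Aldoa, triosephosphate isomerase Tpi1 and Pgk1 by 1.86, 1.64 and 1.75. The 4 genes not called were Pdk2 (0.00), Pfkm (-0.01), Eno2 (-0.05) and Ldhb (-0.30).

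Against GLAD the TIN response of glycolysis genes was higher for 4 of the 25 and lower for 8, where 18.0% and 16.4% of all genes were. Against the double mutant it was higher for 10 and lower for 2, where 22.4% and 20.7% of all genes were. Slc16a3, Tpi1 and Aldoc were higher than in both, and Hk1 and Pdk3 lower than in both. The lists of GLAD (19 rose, 2 fell, median 1.57) and of the double mutant (18 rose, 1 fell) moved the same way. Gbe1, the glycogen branching enzyme, was among the genes whose TIN response fell farthest short of both other mutants. It went from 8.71 and 9.80 CPM to 24.6 and 26.2 CPM in TIN, a response of 1.41 ± 0.15 (adjusted p = 4.5e-07). In hypoxia its mean reached 90.5 CPM in GLAD and 156 CPM in the double mutant, and the TIN response was lower than theirs, with differences of -1.92 and -2.67. The glycogen synthase Gys1 rose by 2.39 ± 0.08 with neither difference called.

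Interferon-induced genes rose in TIN hypoxia and mostly fell in the other mutants. The antiviral effectors, 28 genes that include the IFIT, IFITM and MX families, had 23 that rose and 1 that fell in TIN, with a median of 1.2. In GLAD 4 of them rose and 15 fell (median -0.22), and in the double mutant 4 rose and 22 fell (median -0.84). For 23 of the 28 the TIN response was higher than in both. Isg15, a ubiquitin-like protein attached to other proteins in the antiviral state (ENSMUSG00000035692, GRCm38 chromosome 4, 156199424 to 156200818), was at 20.8 and 23.2 CPM in TIN normoxia and 78.1 and 74.2 CPM in TIN hypoxia, a response of 1.77 ± 0.09 (adjusted p = 3.0e-11). Its response was -0.68 in GLAD and -1.28 in the double mutant. Igtp, an interferon-inducible GTPase of vacuole defence (GRCm38 chromosome 11, 58199556 to 58207591), went from 6.13 and 7.55 CPM to 23.8 and 22.2 CPM, a response of 1.68 ± 0.09 (1.8e-10). Igtp overlaps Irgm2 on the same strand. The promoters of both are printed because they hold GAAANNGAAA, the core of the element bound by interferon-activated STAT and IRF complexes, searched on both strands and set in capitals. That of Isg15 spans chr4:156200769-156201068 on the minus strand of GRCm38.p6, with 3 overlapping forward matches at 78, 72 and 66 bases before the RefSeq start. That of Igtp spans chr11:58199306-58199605 on the plus strand, with 1 forward match at 34 bases before the start.
Isg15: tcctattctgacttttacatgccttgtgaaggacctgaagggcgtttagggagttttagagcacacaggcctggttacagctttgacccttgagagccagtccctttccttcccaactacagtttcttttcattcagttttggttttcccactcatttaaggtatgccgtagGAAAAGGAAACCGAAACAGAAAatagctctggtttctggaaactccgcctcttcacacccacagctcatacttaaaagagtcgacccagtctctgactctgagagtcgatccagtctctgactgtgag
Igtp: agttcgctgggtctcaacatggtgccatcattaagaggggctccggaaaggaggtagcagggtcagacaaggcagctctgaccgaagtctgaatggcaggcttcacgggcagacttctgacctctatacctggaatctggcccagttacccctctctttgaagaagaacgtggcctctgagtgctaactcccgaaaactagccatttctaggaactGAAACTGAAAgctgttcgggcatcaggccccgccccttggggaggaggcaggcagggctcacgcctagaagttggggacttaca
The motif was present in 3.99% of the same windows over all genes, in 9 of 10 matched interferon-inducible GTPases, 4 of 6 OAS genes, 9 of 22 antiviral effectors, 5 of 16 class I presentation genes and 1 of 12 acute-phase genes.

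The signalling arm moved less than its targets. Of 19 receptor, JAK, STAT and IRF genes, 10 rose and 1 fell, with a median of 0.31. Irf7, the transcription factor that amplifies the response, went from 14.5 and 15.5 CPM to 73.4 and 76.2 CPM, a response of 2.28 ± 0.08 (adjusted p = 4.1e-13). Its response was 0.06 in GLAD, not called, and -0.26 in the double mutant. Usp18, which removes ISG15 and restrains the receptor, rose by 1.80 ± 0.07. Stat2 and Irf9, partners in the complex that binds interferon target genes, rose by 0.79 and 0.76. The receptor subunit Ifnar1 (-0.02 ± 0.07) and the kinases Jak1 (0.01 ± 0.08) and Tyk2 (-0.10 ± 0.09) were not called, and the call of Jak2 (-0.21 ± 0.08) was lost on leaving out any 1 TIN library, at -0.27 to -0.15. Among 9 interferon genes only Ifnb1 passed the filter, and it did so through libraries other than those of TIN. The 9 genes together summed to 0 and 0.1 CPM in TIN normoxia and 0.65 and 0.1 CPM in TIN hypoxia. Ifnb1 was therefore near the floor of 3 reads in TIN, and its response of 0.24 (adjusted p = 0.50) is not reliable. The called rises of 1.01 in GLAD and 1.85 in the double mutant cannot be compared with it.

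Of 15 nucleic acid sensors and their adaptors, 8 rose and 1 fell (median 0.25), and 8 responses were higher than in both other mutants. Zbp1, a sensor of Z-form nucleic acid, went from 2.29 and 1.32 CPM to 16.4 and 17.6 CPM, a response of 2.95 ± 0.14 (adjusted p = 2.4e-11). The RNA helicases Dhx58 and Ddx58 (RIG-I) rose by 1.54 and 0.65. Cgas, the sensor of cytosolic DNA (0.25 ± 0.10), and its partner Tmem173, which encodes STING (-0.03 ± 0.11), were not called, and the adaptor Mavs fell by 0.53 ± 0.10. Tmem173 fell by 0.62 in GLAD and by 1.65 in the double mutant.

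The OAS genes, whose products sense double-stranded RNA, rose together in TIN, with 8 rises and no fall among the 9 members of that list (median 1.80). The list had 1 rise and 3 falls in GLAD and 1 rise and 7 falls in the double mutant. Oas2 went from 2.00 and 1.72 CPM to 12.2 and 12.3 CPM, a response of 2.44 ± 0.08 (adjusted p = 6.7e-14), and Oasl2 from 19.3 and 21.3 CPM to 93.6 and 90.0 CPM, a response of 2.15 ± 0.08. Of 13 interferon-inducible GTPases 10 rose and none fell in TIN (median 0.94), against no rise and 10 falls in GLAD (median -0.76) and 13 falls in the double mutant. The guanylate-binding proteins Gbp3 and Gbp2 rose by 1.16 and 0.90, while Gbp7 (0.06 ± 0.12) was not called.

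These rises started from low levels. In TIN normoxia Isg15 averaged 22 CPM, against 567 CPM in the wild type, 416 CPM in GLAD and 341 CPM in the double mutant. In TIN hypoxia it averaged 76.2 CPM, still under the 260 CPM of GLAD and the 140 CPM of the double mutant in hypoxia. Oas2 averaged 1.86 CPM in TIN normoxia and 12.2 CPM in TIN hypoxia, while the other 5 groups lay between 131 and 373 CPM. The TIN normoxia mean was the lowest of the 7 groups for 8 of 9 OAS list members, 23 of 28 effectors, all 13 GTPases and 16 of 20 class I genes, against 15.1% of all genes. The TIN hypoxia mean stayed below all 5 groups of the other genotypes for 8, 25, 13 and 20 of them, against 23.5% of all genes.

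**Figure D3:**
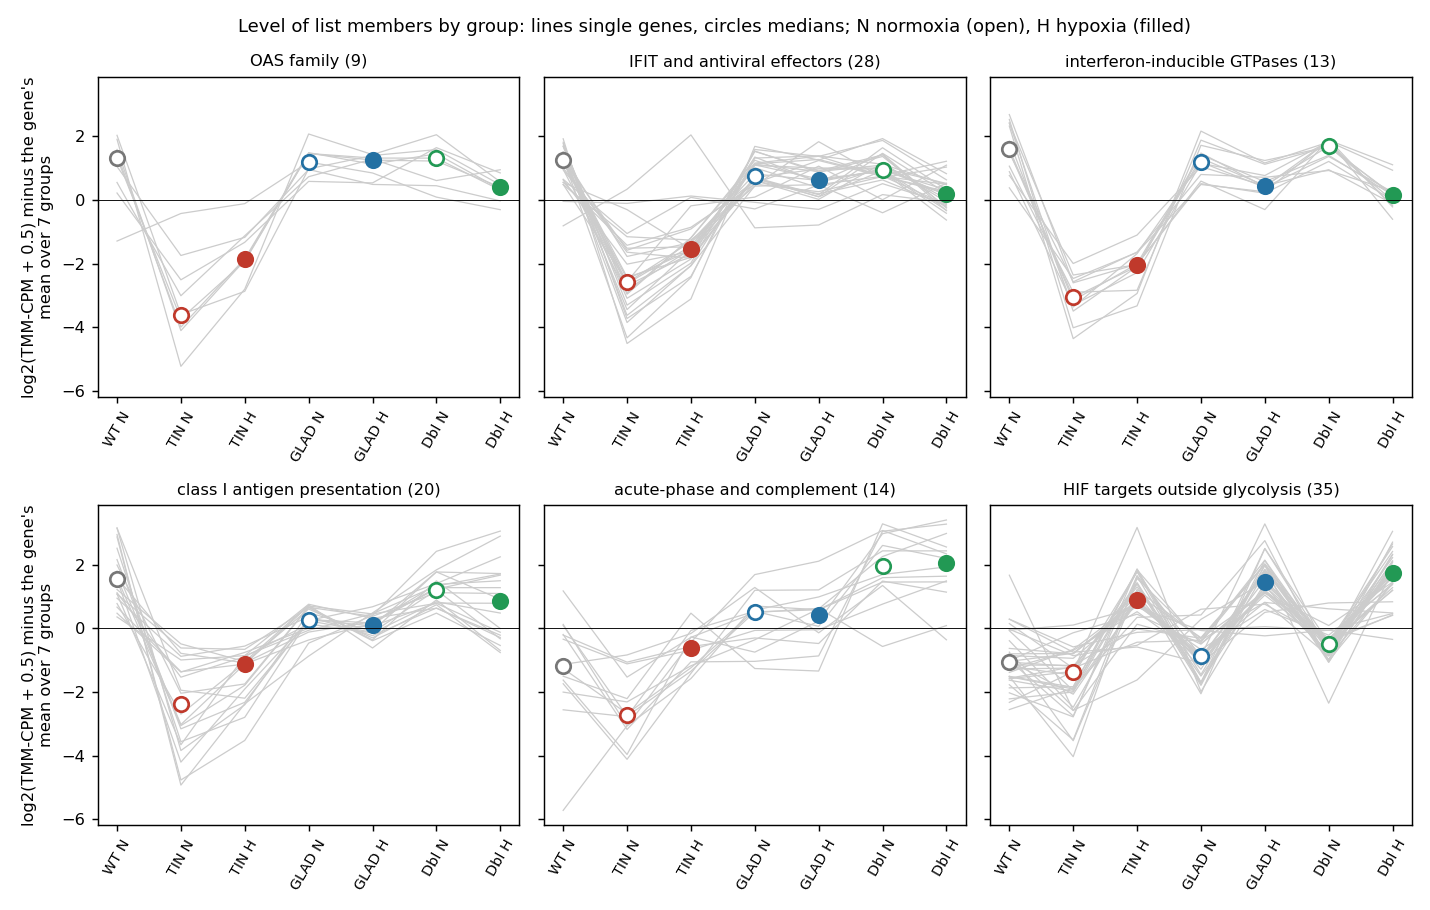
Level of each list member (grey lines) and the list median (circles) in the 7 groups, as log2(TMM-scaled CPM + 0.5) minus the gene's mean over the groups (N normoxia open, H hypoxia filled). In the 4 interferon panels the TIN medians are the lowest in normoxia and rise in hypoxia while staying below the other groups, whereas the HIF targets rise in hypoxia in all 3 mutants.

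Ifit2 was the exception among the effectors. This RNA-binding protein went down from 58.5 and 61.6 CPM to 24.8 and 25.3 CPM in TIN, a response of -1.24 ± 0.10 (adjusted p = 2.5e-08), while its neighbours Ifit1 and Ifit3 rose by 1.02 ± 0.07 and 1.32 ± 0.09. Ifit2 also fell in GLAD, by 0.60, and in the double mutant, by 1.34, and the TIN response did not differ from that of the double mutant by this test (0.10). The other effectors, Ifitm2 (0.23 ± 0.10), Parp12 (0.04 ± 0.08), Trim25 (-0.11 ± 0.07) and Dtx3l (-0.19 ± 0.10), were not called.

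Antigen presentation by MHC class I rose with the antiviral genes. Of 20 members, 15 rose and 2 fell, with a median of 0.71, and 18 responses were higher than in both other mutants. H2-K1, a classical class I heavy chain, went from 36.4 and 41.2 CPM to 281 and 265 CPM, a response of 2.80 ± 0.08 (adjusted p = 1.8e-14). H2-D1, the other classical heavy chain, went from 102 and 105 CPM to 322 and 319 CPM, a response of 1.62 ± 0.08. The light chain B2m went from 287 and 324 CPM to 487 and 454 CPM, a response of 0.62 ± 0.07, and the peptide transporter Tap1 rose by 1.27 ± 0.08. Tapbpl, a peptide editor, fell by 0.56 ± 0.10. The immunoproteasome subunit Psmb10 fell by 0.30 ± 0.11, but was not called without TIN normoxia library A, TIN hypoxia library A or TIN hypoxia library B (-0.32 to -0.25). The class I heavy chain genes resemble one another in sequence, so reads could have been split among them. H2-K1 also rose in GLAD (0.52) and in the double mutant (0.38), by less than in TIN.

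Acute-phase and complement genes rose in TIN. Of 14 members 13 rose and none fell, with a median of 1.47, against 4 rises and 2 falls in GLAD (median 0.04) and 5 rises and 5 falls in the double mutant, and 12 responses were higher in TIN than in both. Lcn2, the siderophore-binding lipocalin (ENSMUSG00000026822, GRCm38 chromosome 2, 32384633 to 32388252), went from 5.74 and 5.88 CPM to 81.3 and 81.0 CPM, a response of 3.69 ± 0.10 (adjusted p = 4.0e-15). The complement component C3 went from 113 and 120 CPM to 302 and 334 CPM, a response of 1.44 ± 0.08, and C4b from 1.36 and 1.47 CPM to 12.7 and 11.2 CPM, a response of 2.70 ± 0.09. The hypoxia libraries lay above the normoxia libraries for each, and nearly all called genes were without overlap. Serum amyloid Saa3 rose by 2.13 ± 0.16, the protease inhibitor Serpina3n by 2.70 ± 0.17 and haptoglobin (Hp) by 2.70 ± 0.21. The TIN normoxia values of Hp, 0.487 and 0.245 CPM, are near the floor of 3 reads, so the size of its rise is not reliable. Orm1 (0.42 ± 0.25) was not called. For Lcn2, too, the hypoxia mean of TIN, 81.2 CPM, lay below the 115 CPM of GLAD and the 1045 CPM of the double mutant, although above the 31.4 CPM of the wild type in normoxia. Of the 14 members, 12 had their lowest mean of the 7 groups in TIN normoxia, against 15.1% of all genes. For 5 the TIN hypoxia mean stayed below all groups of the other genotypes, against 23.5% of all genes.

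Among 21 cytokines and chemokines 15 rose and 2 fell (median 0.67), and 11 responses were higher than in both other mutants. For 12 of the 21 the TIN normoxia mean was the lowest of the 7 groups, against 15.1% of all genes. Cxcl10, an interferon-induced chemokine, went from 14.6 and 15.2 CPM to 116 and 106 CPM, a response of 2.85 ± 0.07 (adjusted p = 4.2e-15). Il6 went from 0.633 and 0.736 CPM to 7.08 and 8.38 CPM, a response of 2.79 ± 0.20, and Lif, a cytokine of the same family, rose by 2.66 ± 0.10. The neutrophil chemokine Cxcl5 and the receptor antagonist Il1rn fell by 0.49 and 0.82. In the NF-kappaB pathway 10 of 14 genes rose and 2 fell (median 0.62), and 7 responses were higher than in both. The subunit Relb went from 49.0 and 47.9 CPM to 124 and 123 CPM, a response of 1.34 ± 0.09, and the inhibitor Nfkbia rose by 1.01 ± 0.08. The inhibitor Tnfaip3 rose by 1.85 ± 0.09 without a called difference to either mutant, while the adhesion molecule Vcam1 fell by 0.58 ± 0.08. Nfkb1, a subunit precursor, fell by 0.26 ± 0.07, a call that was lost at -0.23 without TIN normoxia library B and a direction that turned, to 0.0413 (not called), with the trend on transcript length removed. The myeloid marker Cd68 rose beside these genes, while the pan-leukocyte marker Ptprc gave no reads in any TIN library. Of the 4 myeloid markers tested, 2 rose, 1 fell and 1 was not called, with a lowest response of -0.40. The summed myeloid markers also went up in GLAD (45.9 and 44.8 CPM to 73.8 and 73.4 CPM) and in the double mutant (44.2 and 45.1 CPM to 68.4 and 67.2 CPM).

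Shelterin and telomere maintenance genes split, with 7 rises and 11 falls among 26 and a median of -0.02. Among the shelterin subunits, Tinf2, which encodes TIN2, went from 48.0 and 43.1 CPM to 80.1 and 83.3 CPM, a response of 0.84 ± 0.09 (adjusted p = 9.3e-07). The rises of Terf2ip and Pot1a were 0.48 and 0.40, and Acd (0.07 ± 0.09) was not called. Terf1 fell by 0.66 ± 0.09, by amounts that did not differ by this test from the other mutants, and a count per gene cannot separate the mouse from the NMR sequence. The tankyrases, poly-ADP-ribosylating enzymes that release TRF1 from telomeres, fell only in TIN by these calls. Tnks (ENSMUSG00000031529) went from 163 and 172 CPM to 91.4 and 99.4 CPM, a response of -0.81 ± 0.11 (1.1e-05). GLAD had 0.24 and the double mutant 0.23, neither called, and the TIN response of Tnks was lower by 1.05 and 1.04, both called. Tnks2 went from 258 and 278 CPM to 143 and 152 CPM, a response of -0.86 ± 0.11, with differences of -0.97 and -1.03. The chromatin remodeller Atrx went from 176 and 190 CPM to 86.6 and 95.4 CPM, a response of -1.0 ± 0.12, lower than in both others. With the trend on transcript length removed the responses were -0.45 for Tnks, -0.61 for Tnks2 and -0.55 for Atrx, all still called. Dyskerin (Dkc1) and the helicase Pif1 fell by 1.03 and 1.04 in TIN and also fell in both other mutants.

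The p53 targets were mixed, with 14 rises and 4 falls among 26 and a median of 0.44. Cdkn1a, which encodes the CDK inhibitor p21 (ENSMUSG00000023067, GRCm38 chromosome 17, 29090976 to 29100727), went from 31.5 and 27.1 CPM to 244 and 226 CPM, a response of 2.99 ± 0.08 (adjusted p = 7.5e-15). That was higher than the 0.24 of GLAD by 2.75 and than the 2.32 of the double mutant by 0.66, both called. The GLAD mean was already 217 CPM in normoxia, against 29.3 CPM in TIN. The antiproliferative Btg2 rose by 2.42 ± 0.09. Mdm2, the ubiquitin ligase of p53, rose by 0.50 ± 0.07, less than the 1.63 of the double mutant, and Ccng1 and Zmat3, which rose in the double mutant by 1.18 and 0.35, fell in TIN by 0.35 and 0.68.

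Genes of DNA replication mostly rose (33 of 46, 3 fell, median 0.41), as they did in GLAD (28 rose, 4 fell), led by the flap endonuclease Fen1 at 1.19. The falls of this list in TIN numbered 5 with CPM as deposited, 5 with the length trend removed and 7 with only the TIN groups in the fit. Of 35 mitosis genes 17 rose and 8 fell in TIN (median 0.18), against 3 rises and 27 falls in GLAD (median -0.38), and 11 responses were higher in TIN than in both other mutants. The proliferation marker Mki67 rose by 0.99 ± 0.11, whereas the mitotic cyclin Ccnb1 fell by 0.61 ± 0.08. The falls of the mitosis list numbered 5 without TIN normoxia library B or without TIN hypoxia library B.

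Nuclear respiratory chain genes moved little in TIN and fell in the other mutants. Of 57 genes 10 rose and 8 fell, with a median of 0.04, while GLAD had no rise and 50 falls (median -0.44) and the double mutant 1 rise and 42 falls. For 31 of the 57 the TIN response was higher than in both. Ndufa1, a subunit of complex I, went from 27.5 and 33.1 CPM to 42.2 and 43.7 CPM, a response of 0.50 ± 0.13 (adjusted p = 2.7e-03), and was not called without TIN normoxia library A (0.37). Ndufs1, a core subunit of the same complex, went the other way, from 139 and 138 CPM to 101 and 92.3 CPM, a response of -0.52 ± 0.07 (8.4e-06). The count of rises rested on single libraries: it was 2 without TIN normoxia library A, 5 without TIN hypoxia library A and 6 without TIN hypoxia library B. It was 20 without the wild-type libraries, and the falls numbered 4 without TIN hypoxia library B and 5 without TIN normoxia library B.

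Of 12 genes of the mitochondrial genome 3 rose and none fell in TIN (median 0.14), against 9 falls in each other mutant, and 8 responses were higher than in both. The TIN normoxia libraries differed from each other here: mt-Nd6 stood at 307 and 173 CPM and mt-Cytb at 1509 and 990 CPM. Without TIN normoxia library B the median of the list was -0.24 with no rise and 2 falls, and without library A it was 0.54 with 8 rises. In the tricarboxylic acid cycle, by contrast, 12 of 23 genes fell and 3 rose in TIN (median -0.27), as 17 fell in GLAD and 18 in the double mutant. Citrate synthase (Cs) went from 480 and 474 CPM to 260 and 275 CPM, a response of -0.83 ± 0.07 (adjusted p = 2.6e-08), and Dlat, a subunit of pyruvate dehydrogenase, fell by 1.09 ± 0.09. The pyruvate dehydrogenase subunit Pdhb rose by 0.50 ± 0.08.

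Stress transcription factors rose. In the integrated stress response 20 of 26 genes rose and 1 fell (median 0.57), against 20 and 2 in GLAD and 12 and 10 in the double mutant. Atf3 went from 4.04 and 4.36 CPM to 85.9 and 93.5 CPM, a response of 4.26 ± 0.09 (adjusted p = 3.0e-16), Ddit3 (CHOP) from 39.7 and 36.4 CPM to 163 and 157 CPM, a response of 2.06 ± 0.09, and Atf4 rose by 1.39 ± 0.09. The cystine transporter Slc7a11 fell by 0.76. Of 20 immediate-early genes 19 rose (median 1.63), as 18 did in GLAD and 17 in the double mutant, led by Fosb at 3.52 ± 0.18. Klf4, which rose by 0.95 in both other mutants, had -0.03 ± 0.09 in TIN, and both differences were called.

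Circadian clock genes moved both ways, with 8 rises and 7 falls among 18. The repressor Ciart went from 5.35 and 5.49 CPM to 73.8 and 78.6 CPM, a response of 3.69 ± 0.16 (adjusted p = 4.1e-12). The output factor Dbp went from 30.8 and 27.4 CPM to 7.08 and 8.08 CPM, a response of -1.87 ± 0.13, and the nuclear receptor Nr1d2 from 76.4 and 84.4 CPM to 24.5 and 24.8 CPM, a response of -1.68 ± 0.18. The fall of Nr1d2 was larger than in both other mutants, by 1.02 in each comparison.

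Matrix and contractile genes rose in part. Of 12 matrix metalloproteinases and their inhibitors 8 rose and 3 fell (median 0.50), and 7 responses were higher than in both other mutants. The collagenase Mmp13 went from 8.22 and 9.17 CPM to 49.9 and 52.5 CPM, a response of 2.49 ± 0.13 (adjusted p = 7.5e-11), and the stromelysin Mmp3 from 79.0 and 84.1 CPM to 246 and 253 CPM, a response of 1.61 ± 0.09. The membrane-bound Mmp14 fell by 0.93 ± 0.07. Among 16 smooth muscle contractile genes 11 rose and 3 fell (median 0.76, or 0.32 with 2 CPM added in place of 0.5), including the myosin light chain Myl9 (1.22 and 1.37 CPM to 9.34 and 10.9 CPM, a response of 2.56 ± 0.15) and smooth muscle actin Acta2 (1.21 ± 0.13). Tropomyosin Tpm1 fell by 0.74 ± 0.07. In TGF-beta signalling 6 of 22 genes rose and 12 fell (median -0.25). The receptor Tgfbr1 went from 47.1 and 51.3 CPM to 27.2 and 30.6 CPM, a response of -0.76 ± 0.19, lower than in both other mutants by 1.21 and 1.23, and the inhibitory Smad7 rose by 1.08 ± 0.08.

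Oxygen-dependent histone demethylases rose less in TIN than in the other mutants. These JmjC enzymes need oxygen to remove methyl groups, and several are HIF targets. Of 16 genes 6 rose and 5 fell in TIN (median 0.02), against 12 rises and 1 fall in GLAD (median 0.59) and 11 rises and 1 fall in the double mutant. For 10 of the 16 the TIN response was lower than in both, and none was higher. Kdm7a went from 34.3 and 38.3 CPM to 16.2 and 16.0 CPM, a response of -1.15 ± 0.12 (adjusted p = 3.7e-07), while GLAD had 0.03 and the double mutant 0.04. Kdm3a, a HIF target, rose by 1.22 ± 0.09 in TIN where GLAD had 2.09 and the double mutant 1.96. Kdm5c and Kdm6a fell by 0.47 each in TIN. With the trend on transcript length removed, described below, the falls of this list in TIN numbered 3 and its median was 0.25.

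Over all genes the TIN response was higher than that of GLAD for 2909 genes (18.0%) and lower for 2642 (16.4%), and it was higher than that of the double mutant for 3614 (22.4%) and lower for 3349 (20.7%). It was higher than both for 2004 genes and lower than both for 1955. With the length trend removed, the higher share of the calls against GLAD went from 52.40% to 63.33%. Counts that cross sign were smaller: 220 genes rose in TIN and fell in both other mutants, and 198 fell in TIN and rose in both others. All 3 mutants shared 1690 rises and 1705 falls.

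**Figure D4:**
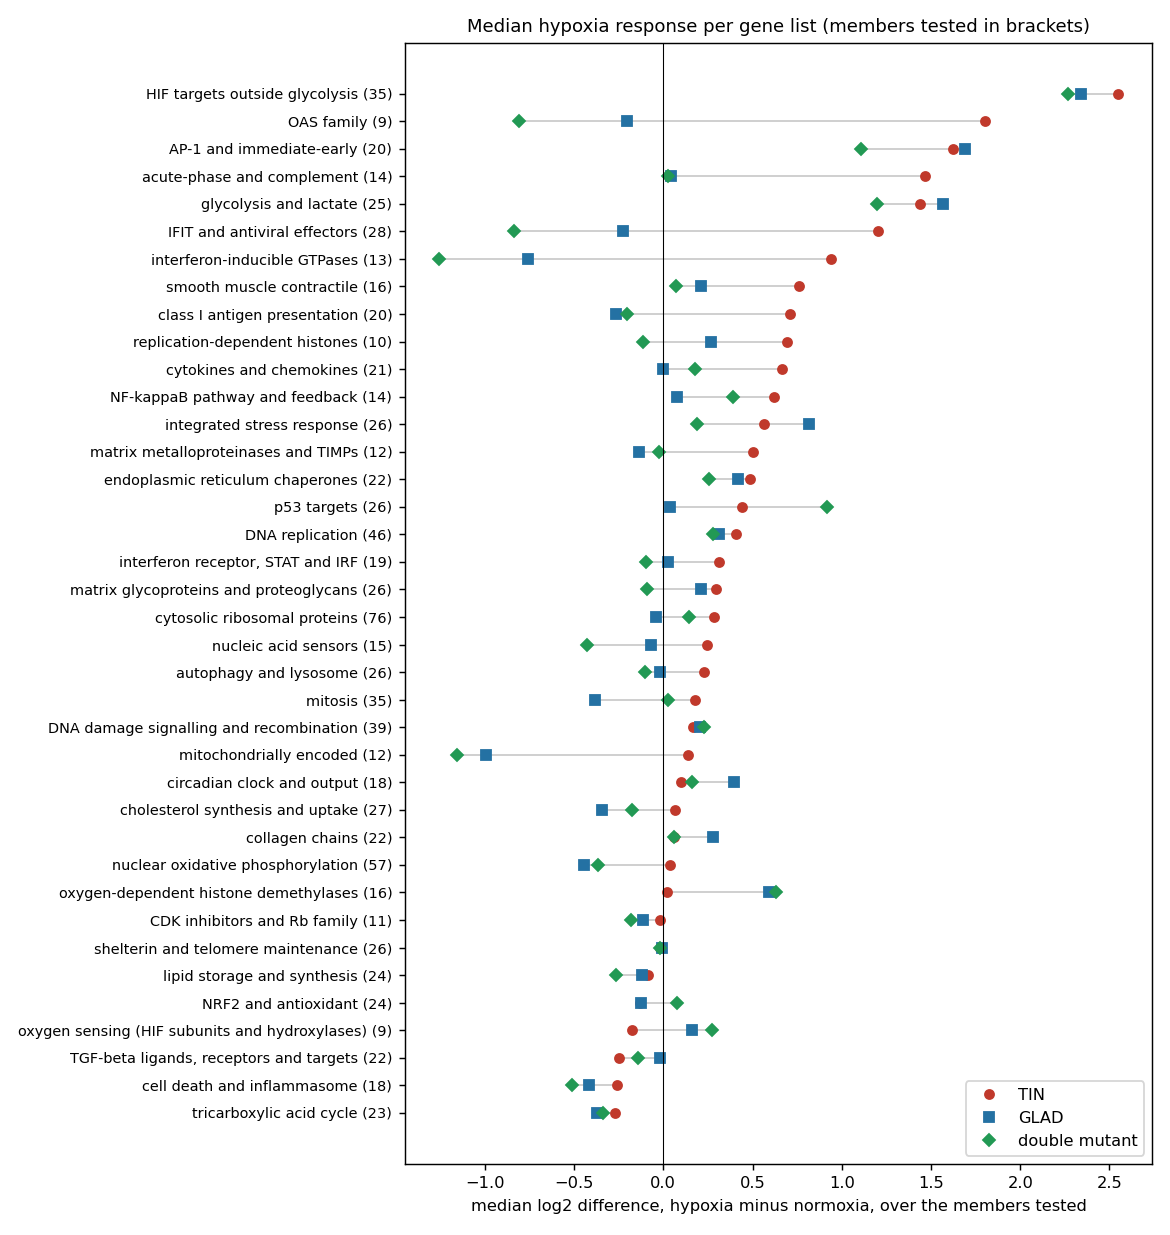
Median response (log2 difference, hypoxia minus normoxia) of each gene list with at least 9 tested members in the TIN (red circles), GLAD (blue squares) and double mutants (green diamonds); the number tested is in brackets. The TIN median of the OAS list is 1.80 and that of the GTPases 0.94 where the other mutants lie below 0, while the HIF target medians lie close together at the top.

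The largest single rises in TIN, among genes with a mean of at least 5 CPM in the 4 TIN libraries, were those of Gpr35, Car9, Stc1, Selenbp1, Aire, Adm, Ak4, Ankrd37, Gipr, Loxl2, Atf3, Lrp2bp, Cspg5, Ddit4 and Tnn. Gpr35, a G protein-coupled receptor, went from 0.146 and 0.343 CPM to 48.2 and 49.0 CPM, a response of 6.06 ± 0.22. Selenbp1, a selenium-binding protein, went from 0.487 and 0.245 CPM to 28.6 and 26.4 CPM, a response of 5.03 ± 0.19 (adjusted p = 6.6e-13). Gipr, the receptor of an incretin hormone, went from 0.243 and 0.196 CPM to 16.5 and 13.8 CPM. The normoxia values of Gpr35, Stc1, Selenbp1, Gipr and Cspg5 are near the floor of 3 reads, so the sizes of their rises are not reliable. Aire, the transcription factor that drives tissue antigens in the thymus, had no read in either TIN normoxia library and 14.8 and 13.2 CPM in hypoxia, at least 57.0-fold higher when set against a floor of 3 reads per library. Aire rose in all 3 mutants. Tnn, the matrix glycoprotein tenascin N, went from 1.85 and 1.72 CPM to 29.1 and 33.5 CPM, a response of 3.80 ± 0.11 (8.6e-15), where GLAD had 0.65 and the double mutant 0.28. Its TIN hypoxia mean of 31.3 CPM still lay under the means of 116 to 236 CPM of the other mutants. It was close to the 31.1 CPM of the wild type in normoxia.

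The largest falls were those of Uprt, Zbed6, Akr1c14, 4930417H01Rik, Lnpep, Klf12, Itgb8, Gli1, Far1os, Gm2366, C030034L19Rik, Jade2, Gper1, Sema3d and Lmbrd2. Uprt, a homologue of uracil phosphoribosyltransferase, went from 14.5 and 17.8 CPM to 1.41 and 1.90 CPM, a response of -2.95 ± 0.20 (adjusted p = 2.2e-09). Lnpep, an aminopeptidase of glucose transporter vesicles, went from 47.0 and 63.2 CPM to 11.0 and 10.6 CPM, a response of -2.28 ± 0.23 (3.0e-07), where GLAD had 0.02 and the double mutant 0.33, neither called. Gli1, a target and effector of Hedgehog signalling, went from 10.2 and 8.92 CPM to 2.31 and 1.35 CPM, a response of -2.14 ± 0.26. Jade2, a subunit of a histone acetyltransferase complex, fell by 1.98 ± 0.12, and its falls in GLAD (1.79) and the double mutant (2.38) did not differ from this by the test. Of the 15, 4930417H01Rik, Far1os, Gm2366, C030034L19Rik, Gper1 and Lmbrd2 overlap a gene on the opposite strand and Zbed6 lies within Zc3h11a, so their reads cannot be told apart from those of the partner.

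The genes with the highest TIN response against both other mutants were Tnn, Serpina3n, Oas2, Zbp1, Hp, Apod, Lcn2, Ifi27l2a, C4b and Oasl2. Apod, a lipid-binding lipocalin, went from 0.292 and 0.245 CPM to 5.67 and 4.89 CPM, a response of 2.91 ± 0.12, where GLAD had 0.13 and the double mutant -0.60. Its TIN levels lay far under the 64.7 CPM of the wild type. The TIN normoxia values of Apod and Hp are near the floor of 3 reads, so the sizes of their responses are not reliable. The lowest were Trpm2, Gm26749, Lnpep, Apol7d, Gm2366, Lmbrd2, Lancl3, Aff2, Gm15886 and Gbe1. Most of these genes also differed between wild-type libraries A and B, both in normoxia. Lnpep stood there at 27.7 and 12.1 CPM, Lmbrd2 at 18.7 and 6.6 CPM and Apol7d at 40.5 and 18.5 CPM, while Gbe1 differed less (8.29 and 6.6 CPM). Whether the same source of variation enters their TIN responses was not tested. Trpm2, a calcium channel gated by ADP-ribose, rose from 0.0974 and 0 CPM to 3.21 and 2.30 CPM in TIN, while its hypoxia mean was 33.3 CPM in GLAD and 28.5 CPM in the double mutant. Its normoxia values are at or under the floor. Aff2, a nuclear factor of transcription elongation complexes, went from 6.96 and 8.19 CPM to 1.10 and 1.10 CPM, a response of -2.33 ± 0.21.

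Long transcripts fell more in TIN. Genes were split into 5 equal groups by the length of their exons, and the median TIN response ran from 0.13 in the shortest group (up to 1745 bases) to -0.19 in the longest (from 6964 bases). In GLAD the same groups ran from -0.06 to 0.04, and in the double mutant from -0.06 to 0.01. In TIN 28.5% of the shortest genes rose and 16.3% fell, against 16.6% and 44.8% of the longest. The median exon length was 3826 bases over all genes tested, 2819 bases for genes that rose at least 2-fold in TIN and 5050 bases for those that fell at least 2-fold. Genes annotated as antisense made up 5.88% of all genes tested and 14.7% of those that fell at least 2-fold. Tnks (14888 bases of exon) and Lnpep (14144 bases) are among the long genes that fell. With a smooth trend on exon length removed from each library, Lnpep (-1.94) and Kdm7a (-0.90), like the tankyrases and Atrx, were still called as falling. The part of RNA length or RNA quality in these differences was not tested.

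**Figure D5:**
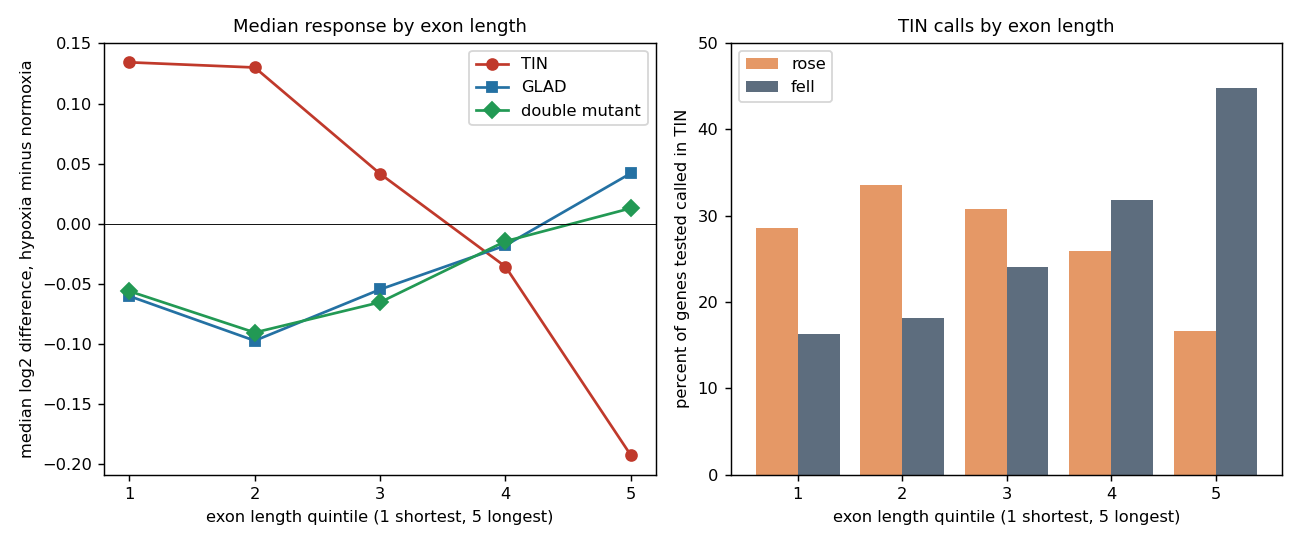
Left, the median response (log2 difference, hypoxia minus normoxia) per exon length quintile in the 3 mutants; right, the percent of genes in each quintile that rose or fell in TIN. The TIN median goes from 0.13 in the shortest quintile to -0.19 in the longest, and the share that fell goes from 16.3% to 44.8%.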

How the data were processed

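RNA from 14 libraries of tMEF cells, 2 for each of 7 groups, was sequenced, and the authors deposited 1 table of CPM per gene (reads scaled to a common library total) for 52636 genes, 52403 of them with a symbol. STAR, HTSeq, GRCm38.p4 and mm10 are named in the submitters' processing notes. The sources used here do not give tool versions, strand setting or annotation. Groups came from the library labels. The members and gene lists were chosen with earlier results of these data known.

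CPM columns were scaled by TMM factors (trimming 30% of the log ratios and 5% of the levels), genes that reached 1 CPM in 2 or more libraries were retained, and log2(scaled CPM + 0.5) was fitted over all 7 groups with limma 3.58.1 (R 4.3.3), with 7 residual and 10.3 prior degrees of freedom. The contrasts were the hypoxia response of each mutant and its difference between TIN and each other mutant, with Benjamini-Hochberg adjustment over all genes. The procedure was tested on simulated data. Summaries used Python 3.11.15. Depth was taken from the steps of the values: of values up to 200 CPM, 99.9% to 100% per library fitted whole reads. The scale was chosen for this fit, and 59.6% to 75.8% of random values also fitted. The read totals and the floor of 3 reads are therefore estimates. Gene positions and exon lengths came from GENCODE (GRCm38), and promoters from RefSeq.

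A few genes are not reported here. Genes named in the text were list members, Terf1, the 15 largest called rises and falls (mean of at least 5 CPM over the 4 TIN libraries), and the 10 highest and 10 lowest by the smaller difference to both other mutants (same mean over the 12 mutant libraries). Alternatives were other pseudocounts, filters and scalings, a fit on the compared groups alone, a replicate block, removal of the length trend, leaving out each library, and, chosen after seeing the data, a fit without the wild type.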

Additional observations from a re-analysis of the deposited data

Results flagged for a closer look

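The hypoxia response differed between TIN and GLAD for 5551 genes and between TIN and the double mutant for 6963 genes, by the test of the difference itself. The values below are the smaller of the 2 differences (log2, TIN minus the other mutant) for the genes at either end, each called against both mutants.

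The TIN response was higher by 3.15 for Tnn, 3.12 for Serpina3n, 3.09 for Oas2, 3.02 for Zbp1, 2.79 for Hp, 2.78 for Apod, 2.71 for Lcn2, 2.69 for Ifi27l2a, 2.68 for C4b and 2.51 for Oasl2. For Oas2, Zbp1, Apod, Ifi27l2a and Oasl2 the TIN hypoxia mean lay below every group of the other genotypes. The sizes for Hp and Apod are not reliable, because their TIN normoxia values are near the floor of 3 reads. The difference was -2.84 for Trpm2, -2.33 for Gm26749, -2.30 for Lnpep, -2.18 for Apol7d, -2.16 for Gm2366, -2.11 for Lmbrd2, -2.08 for Lancl3, -1.99 for Aff2, -1.95 for Gm15886 and -1.92 for Gbe1. Of these, Gm26749, Apol7d, Gm2366, Lmbrd2, Lancl3 and Gm15886 overlap a gene on the opposite strand. Most of the genes with a lower response also differed between wild-type libraries A and B, as given above. With 0.1 CPM added in place of 0.5, the difference of Trpm2 to GLAD was -2.13 (adjusted p = 0.070) and was not called.

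By list, the members with a higher response in TIN than in both other mutants numbered 8 of 15 nucleic acid sensors, 7 of 9 members of the OAS list, 23 of 28 antiviral effectors, 12 of 13 GTPases, 18 of 20 class I genes, 11 of 21 cytokines, 12 of 14 acute-phase genes, 7 of 14 NF-kappaB genes, 31 of 57 nuclear respiratory chain genes, 8 of 12 mitochondrially encoded genes and 7 of 12 metalloproteinase and TIMP genes. Those with a lower response numbered 10 of 16 histone demethylases. Against both mutants, 12.4% of all genes were higher and 12.1% lower.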

How the results depend on the processing

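Leaving out each library in turn gave 6796 to 7243 called genes in TIN (3351 to 3606 rises, 3418 to 3637 falls), 3857 to 4417 for the difference to GLAD and 5510 to 6796 for that to the double mutant, where the lone library was assumed to vary like the other groups. With 2 CPM added in place of 0.5, the rises of at least 2-fold numbered 627 and the falls 385. The call totals stayed within 1.5 times their reported values under the other settings run. The direction turned for 8 list members called in TIN with the length trend removed: Atr 0.0698, Cenpf 0.0832, Col1a2 0.0665, Fasn 0.25, Jmjd1c 0.0921, Nfkb1 0.0413, Tep1 0.22 and Trp53bp1 0.0355. The cause was not tested. The median of the mitochondrially encoded list was -0.24 without TIN normoxia library B and 0.54 without library A. List medians near 0 also changed sign under some settings, for the histone demethylases, shelterin and telomere maintenance, CDK inhibitors and Rb family, nuclear oxidative phosphorylation and lipid lists, the last from -0.09 to 0.03 with the length trend removed. Over all genes tested, 5 TIN calls were made with the opposite sign with the length trend removed. The median TIN response of all genes was -0.02 with CPM as deposited, and the higher share of the calls against GLAD was 46.62% without the filter on low values. Removing the length trend moved the higher share of the calls from 49.99% to 54.29% in TIN and from 51.90% to 58.29% against the double mutant.

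Pairing of the libraries by the letters A and B was not evident in TIN, where the correlation of their deviations was 0.0053 between normoxia and hypoxia. Over 21 pairs of groups it ranged from -0.152 to 0.297, the highest for GLAD normoxia and hypoxia. Whether libraries of other groups were paired cannot be told from these values. With the letter as a replicate block, 8671 of the 8734 TIN calls were shared, as were 5454 and 6910 of those for the differences to GLAD and the double mutant, and every list count stayed within 1.5 times. Count tests (edgeR, DESeq2) were not run, because the table holds CPM. With 2 libraries a group, genes near the floor of 3 reads have no reliable fold, and the length of transcripts moves with the TIN response.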

Other observations

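Genes of protein synthesis and folding rose by small amounts in TIN. Of 76 cytosolic ribosomal protein genes 51 rose and none fell (median 0.29), against 1 rise and 3 falls in GLAD (median -0.04) and 17 rises and 1 fall in the double mutant. The count rested on single libraries: it was 11 without TIN normoxia library A, 16 without TIN hypoxia library A and 17 without the filter on low values. Many ribosomal protein genes have near-identical pseudogenes, so their counts are uncertain. Fau, which encodes ribosomal protein S30, was at 353 and 360 CPM in TIN normoxia and 618 and 595 CPM in TIN hypoxia, a response of 0.76 ± 0.10 (limma, adjusted p = 7.5e-06). Of 22 endoplasmic reticulum chaperone genes 17 rose (median 0.48), as 17 did in GLAD.

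Lipid genes moved both ways, with 10 rises and 11 falls among 24. The triglyceride synthase Dgat2 went from 16.9 and 17.7 CPM to 75.9 and 80.5 CPM, a response of 2.15 ± 0.11, and the lipolysis inhibitor Hilpda rose by 1.69 ± 0.15. The fatty acid elongase Elovl6, the acetyl-CoA carboxylase Acaca, the desaturase Scd1 and the carnitine transferase Cpt1a fell by 1.49, 1.09, 1.02 and 0.98. None of these differences was called against both other mutants. Cholesterol synthesis and uptake genes had 10 rises among 27 (median 0.07), against 5 rises and 15 falls in GLAD (median -0.34), and 9 TIN responses were higher than in both other mutants.

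Antioxidant genes fell more often than they rose, with 4 rises and 9 falls among 24 (median -0.13). Txnip, an inhibitor of thioredoxin and of glucose uptake, went from 95.2 and 92.7 CPM to 762 and 751 CPM, a response of 3.00 ± 0.06, higher than in GLAD by 1.81 and than in the double mutant by 1.41. Nfe2l2, which encodes the antioxidant regulator NRF2, fell by 0.36 ± 0.07 and its target Nqo1 by 0.81 ± 0.10. Gclc, a subunit of the enzyme that starts glutathione synthesis, was at 80.8 and 81.4 CPM and then 75.1 and 73.1 CPM in TIN, not called, and rose in GLAD by 1.01 and in the double mutant by 1.78.

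Of 18 cell death genes 2 rose (1 without TIN normoxia library B), and 9 fell, among them Bid by 0.99 and Bcl2 by 0.80. Of 39 DNA damage genes 13 rose and 8 fell, and of 26 autophagy genes 12 rose. Collagen chains had 7 rises and 4 falls among 22, with 2 falls without TIN normoxia library A or either TIN hypoxia library, and matrix glycoproteins 14 rises and 4 falls among 26. Of 11 CDK inhibitor and Rb family genes 3 rose and 2 fell, where the falls numbered 4 with CPM as deposited, 4 with the length trend removed and 5 with only the TIN groups in the fit. Of 10 histone genes 6 rose and none fell, or 3 without TIN normoxia library A or B or TIN hypoxia library B.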
